A study of Nothobranchius furzeri with 15 samples.

Results

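RNA was sequenced from brain, liver and skin of the turquoise killifish Nothobranchius furzeri, an annual fish of ephemeral pools that is kept as a short-lived vertebrate model. The fish were of the laboratory strain GRZ and 12 weeks old, and the study has 5 brain, 5 liver and 5 skin samples, described by the submitters as biological replicates. No agent or allele is named in the labels, and the sex of the fish is not given in them. Samples are called here by tissue and by the number in their title, as in brain 10 or skin 5. The entries described here are the abundant transcripts that tissues share: those with a mean among the 100 highest in at least 2 of the 3 tissues. Levels are in counts-per-million (CPM), the count of an entry divided by the total of its library, and each tissue's mean is over its 5 samples. The rule found 46 of the 18311 entries of the killifish transcript catalogue.

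The most abundant messenger RNAs of animal cells serve both general and specialised work. Protein synthesis, energy metabolism, the cytoskeleton and iron storage are known to draw on transcripts that many tissues hold in large amounts. Liver adds large amounts of messages for secreted plasma proteins, brain those for neurons and glia, and skin those for keratins and collagens. The catalogue pairs its entries with zebrafish identifiers but with no gene names, and none of these identifiers matched the killifish reference table. No entry is therefore given a name or a role here, and the labelled tissues could not be checked against marker genes. All values come from bulk tissue, in which fewer cells of a type and less RNA per cell cannot be told apart.

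Because mean levels chose the 46 entries, their levels and differences between tissues are a description, and no p-value is given for any of them. Of the 46, 15 were among the 100 highest of all 3 tissues, 7 of brain and liver alone, 8 of brain and skin alone, and 16 of liver and skin alone. Brain's top list held 30 of them, liver's 38 and skin's 39. The top lists of brain and liver had 22 entries in common, those of brain and skin 23, and those of liver and skin 31. The 15 entries of all 3 lists had mean levels between 873 and 2780 CPM in brain, between 1747 and 6447 CPM in liver, and between 1605 and 5488 CPM in skin.

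The threshold fell at a lower level in brain than in the other tissues. The mean at rank 100 and at the next rank was 795 and 788 CPM in brain, 1448.1 and 1447.6 CPM in liver, and 1437 and 1400 CPM in skin. The lowest shared entry inside a list had 873 CPM in brain, 1448 CPM in liver and 1467 CPM in skin. The nearest entry that would have become shared by rising in a list had 743 CPM in brain (rank 112), 1422 CPM in liver (rank 102) and 1376 CPM in skin (rank 102). Liver was the tissue with most such near misses: 7 entries stood within 20 ranks below the threshold there, against 1 in brain and 2 in skin.

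Most shared entries that missed a list stood within its first 200 ranks. All 8 entries outside liver's list stood between ranks 113 and 196 there. In level they had means of 824 to 1291 CPM in liver, where rank 100 had 1448 CPM. Of the 16 outside brain's list, 12 were within the first 200 ranks, and the lowest stood at rank 11568. Of the 7 outside skin's list, 4 were within the first 200, and the lowest stood at rank 7994. In single libraries, 10 of the 46 were among the 100 highest of every one of the 15 libraries, and no other entry of the catalogue was. A further 19 were there in 10 or 11 libraries, and 13 in fewer than 10, the lowest number being 6.

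**Figure D1:**
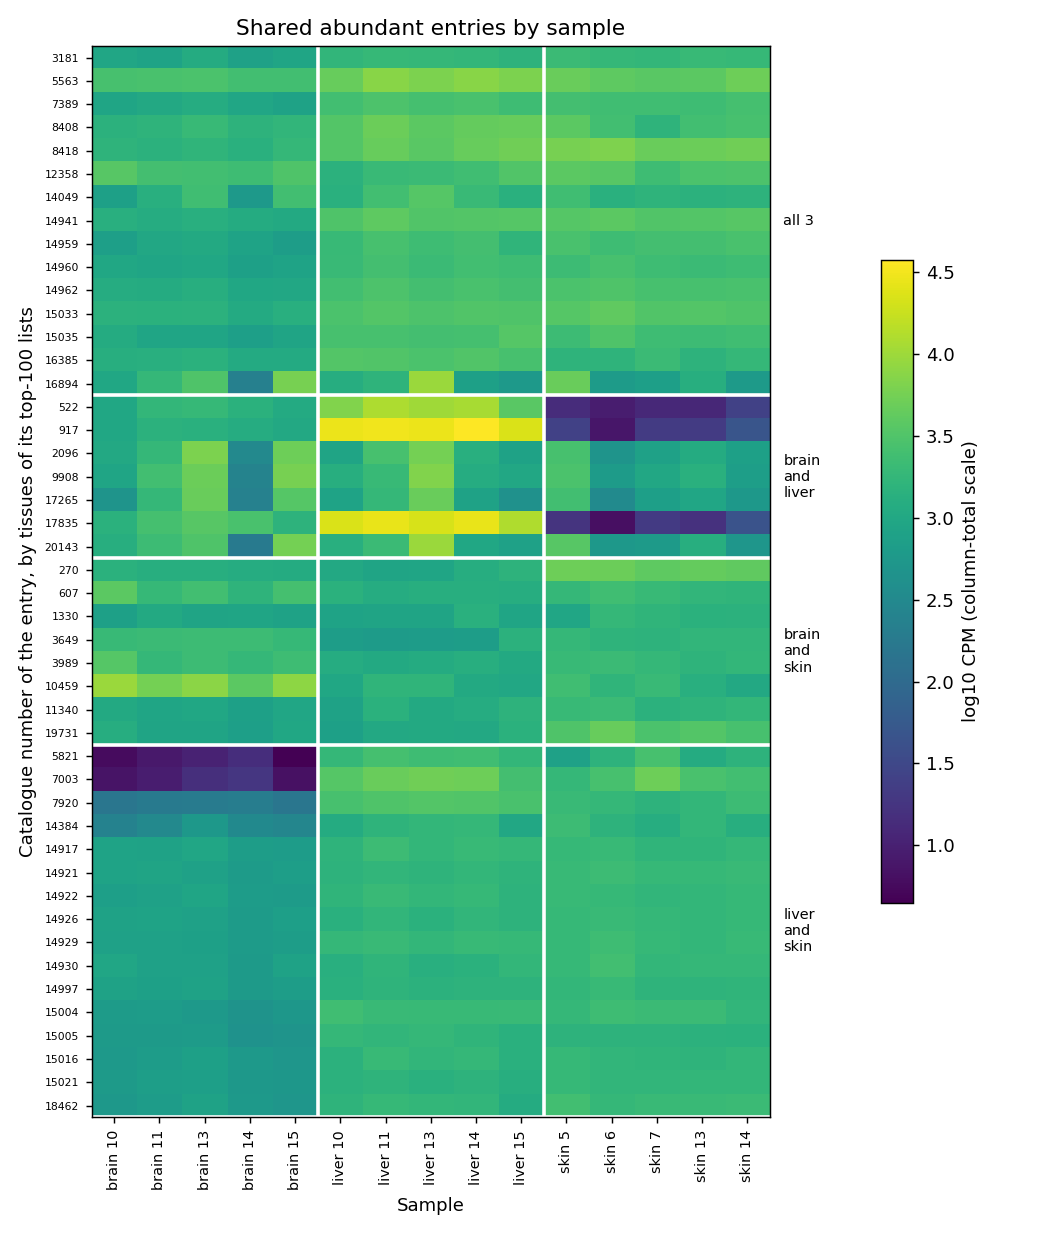
Level of each of the 46 shared entries (rows, labelled by catalogue number and grouped by the tissues in whose top lists they stand) in each of the 15 samples (columns, brain, liver and skin from left to right), as log10 of CPM by colour. The darkest cells are the 3 entries low in skin and the 2 low in brain.

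The 46 entries held 6.44% ± 1.44 of brain counts, 15.7% ± 2.48 of liver counts and 9.53% ± 0.842 of skin counts (SD, n = 5 each). The samples ranged between 4.40% and 8.01% in brain, between 12.4% and 18.1% in liver, and between 8.96% and 10.9% in skin, so the tissues' ranges did not overlap. The entries in only a single tissue's top list held more than the shared ones in every tissue: 8.53% ± 0.801 of brain counts, 31.8% ± 3.31 of liver counts and 22.6% ± 3.50 of skin counts (SD, n = 5 each). The 15 entries of all 3 lists held 2.22% ± 0.369 in brain, 4.60% ± 0.543 in liver and 4.20% ± 0.436 in skin. The 7 brain and liver entries held 1.55% in brain, 7.05% in liver and 0.485% in skin, and 3 of the 7, described below by identifier, make up most of the liver value. Without these 7 entries the mean share in liver would not exceed that in skin. They stood in liver's list and not in skin's, so this outcome is in part set by the rule. The 8 entries of brain's and skin's lists alone held 0.893% in liver and 1.82% in skin. The 16 of liver and skin alone held 3.12% in liver and 3.02% in skin. These shares are of a fixed total, so a few very high transcripts in a library lower the share of all others.

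**Figure D2:**
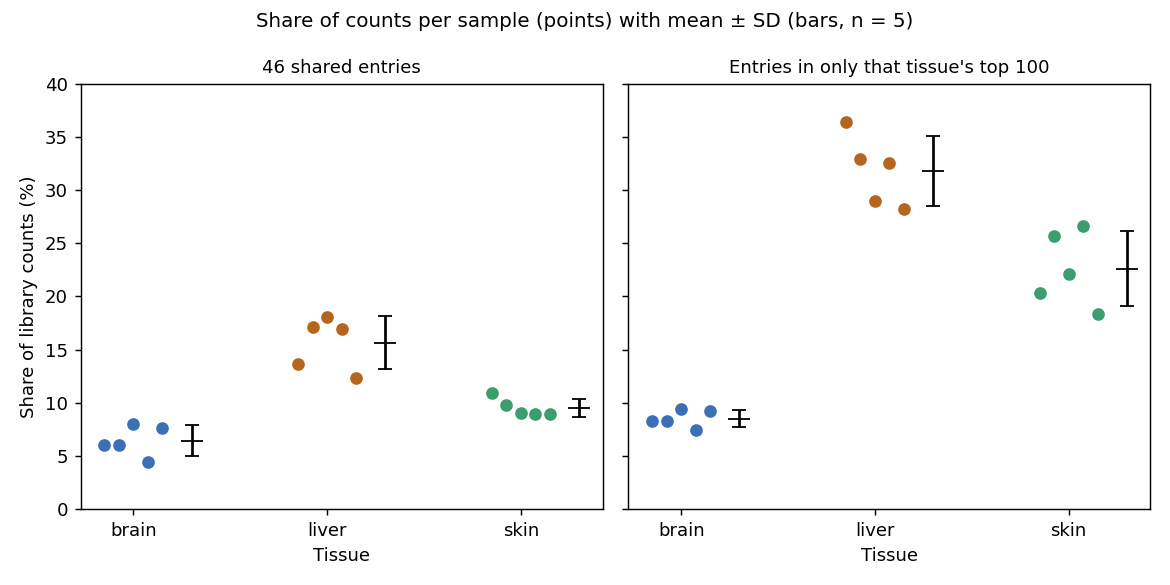
Share of library counts (percent) held by the 46 shared entries (left) and by the entries in only that tissue's top 100 (right), for brain, liver and skin. Points are samples and bars the mean ± SD over 5 samples. Liver is highest in both panels. Its lead over skin in the left panel would not remain without the 7 brain and liver entries. Those stood in liver's list and not in skin's. Single-tissue entries, which are more in number, hold more than shared ones in each tissue.

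As a description, more of the shared entries had mean CPM within 2-fold between liver and skin than between brain and either of them. The threshold of the top list was itself lower in brain, and 16 entries were chosen through liver and skin alone. A lower level in brain is thus in part set by the rule. So is closeness of liver and skin, as those 16 and the 15 of all 3 lists stood in both lists. How many of all entries tested lay within 2-fold was not counted. Mean CPM was highest in brain for 7 entries, in liver for 17 and in skin for 22. The median ratio of mean CPM was 2.37 for liver over brain, 2.47 for skin over brain and 0.972 for liver over skin. The mean levels were within 2-fold of each other for 15 of 46 entries between brain and liver, for 12 between brain and skin, and for 39 between liver and skin. Between the highest and the lowest tissue the ratio was under 2 in 7 entries, 2 to 4 in 30, 4 to 10 in 3 and over 10 in 6. The smallest ratio was 1.39 and the largest 1197.

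Sample by sample, in CPM, all 5 brain samples stood above all 5 liver samples in 4 of the 46 entries, and below them in 31, while 11 overlapped. Over all 16611 entries tested, brain stood wholly above liver in 62.1% and wholly below in 10.4%. Brain stood wholly above skin in 5 of the 46 entries and wholly below in 30 (50% and 19.9% of all entries tested). Liver stood wholly above skin in 5 and wholly below in 8 (7.71% and 41.8% of all entries tested), and 33 of the 46 overlapped. The same levels chose these entries, so nothing is read from their counts against the background.

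A fit across all genes was made by edgeR's quasi-likelihood test, with libraries scaled by TMM. All 46 entries passed its filter on low counts. Their calls rest on levels that the choice used, so they are counted here as a description beside the calls over all entries, and nothing is read from them. In brain over liver, 39 passed an adjusted p of 0.05, 1 higher and 38 lower in brain, where 73.8% of all entries tested passed, 37.8% higher and 36% lower. In brain over skin, 38 passed, 4 higher and 34 lower in brain, where 69.9% of all entries passed, 34.7% higher and 35.3% lower. In liver over skin, 30 passed, 28 higher and 2 lower in liver, where 62.8% of all entries passed, 29.3% higher and 33.5% lower. The comparisons share samples pairwise. The median log2 fold change of the 46, beside that of all entries tested, was -2.75 beside 0.01 in brain over liver, -2.05 beside 0.03 in brain over skin, and 0.71 beside -0.03 in liver over skin.

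The directions of the calls differed between scalings. TMM's factor averaged 1.68 over brain samples, 0.598 over liver samples and 1.01 over skin samples, which makes a scaled level higher in liver and lower in brain than the plain CPM. With library totals as the only scale, the median of all entries tested moved to 1.49, 0.76 and -0.78 in brain over liver, brain over skin and liver over skin. The median of the 46 then was -1.25, -1.31 and -0.04 in the same order of comparisons. Without scaling, 4 of the 46 were called higher and 31 lower in brain over liver, where 83.1% of all entries were called, 70% higher and 13.2% lower. In brain over skin it was 4 higher and 32 lower, where 77.2% of all entries were called, 54.3% higher and 22.9% lower. In liver over skin it was 7 higher and 7 lower, where 67% of all entries were called, 11.5% higher and 55.5% lower. The number called higher in liver than in skin was thus 28 with TMM and 7 without it.

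Among the shared entries, Nofu_gene_3_0010459 (zebrafish ENSDARG00000035158) had the largest ratio of brain over liver in CPM. It had 9617, 5605, 7927, 3853 and 8031 CPM in brain 10, 11, 13, 14 and 15. It had 953, 1673, 1647, 1086 and 993 CPM in liver 10, 11, 13, 14 and 15, and 2327, 1638, 2042, 1330 and 1031 CPM in skin 5, 6, 7, 13 and 14. Every brain sample stood above every liver and skin sample, and the entry had the highest mean CPM of the whole catalogue in brain. Its TMM-scaled log2 fold change was 0.95 ± 0.32 in brain over liver and 1.33 ± 0.33 in brain over skin (SE). Nofu_gene_3_0003649 (ENSDARG00000013351) came next in brain over liver, with 1880 to 2178 CPM in the 5 brain samples and a median of 2141. Its liver samples had 685, 632, 648, 685 and 1469 CPM in liver 10, 11, 13, 14 and 15, so liver 15 stood alone, and its skin samples had 1561 to 1856 CPM with a median of 1694. Its difference between brain and liver depended on the scale. The mean CPM in brain was 2.50 times that in liver, but the TMM-scaled log2 fold change of brain over liver was -0.13 ± 0.18 (SE), smaller than its SE.

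Of the 16 liver and skin entries, 2 were far lower in brain, with 4.44 to 18.3 CPM over its samples. Nofu_gene_3_0007003 (ENSDARG00000043457) had 7.08, 9.03, 15.1, 18.3 and 6.64 CPM in brain 10, 11, 13, 14 and 15. It had 3509, 4835, 5372, 5161 and 2501 CPM in liver 10, 11, 13, 14 and 15, and 1846, 2710, 5094, 2810 and 2399 CPM in skin 5, 6, 7, 13 and 14. Liver and skin overlapped, with liver 15 lowest of the livers and skin 7 highest of the skins. Nofu_gene_3_0005821 (ENSDARG00000039007) had 5.81, 8.32, 10.7, 14.4 and 4.44 CPM in brain 10, 11, 13, 14 and 15. It had 1830, 2563, 2247, 2370 and 1746 CPM in liver 10, 11, 13, 14 and 15, and 775, 1558, 2680, 1159 and 1527 CPM in skin 5, 6, 7, 13 and 14. In both entries brain 14 and skin 7 were the highest and brain 15, liver 15 and skin 5 the lowest of their tissues, while the other liver and skin samples differed in order. Without skin 7, mean skin CPM was 2441 for the first entry and 1255 for the second, against 2972 and 1540 with it. Mean CPM in liver was 381 times that in brain for the first and 246 times for the second. The TMM-scaled log2 fold change of brain over liver was -10.12 ± 0.53 and -9.47 ± 0.49, and that of brain over skin -8.82 ± 0.50 and -8.22 ± 0.46 (SE).

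Of the 7 brain and liver entries, 3 were far lower in skin, with 6.52 to 48.9 CPM over its samples. Nofu_gene_3_0017835 (ENSDARG00000016771) had 1409, 2620, 3637, 2815 and 1556 CPM in brain 10, 11, 13, 14 and 15. It had 22396, 27539, 21412, 27315 and 12753 CPM in liver 10, 11, 13, 14 and 15, and 17.6, 6.52, 20.7, 16.3 and 45.5 CPM in skin 5, 6, 7, 13 and 14. The ranges of the 3 tissues stood apart, with liver highest and skin lowest. Nofu_gene_3_0000522 (ENSDARG00000069293) had 982, 1767, 1905, 1452 and 1109 CPM in brain 10, 11, 13, 14 and 15. It had 6652, 12369, 10327, 11610 and 3751 CPM in liver 10, 11, 13, 14 and 15, and 14.1, 9.21, 12.5, 12.3 and 25.5 CPM in skin 5, 6, 7, 13 and 14. Nofu_gene_3_0000917 (ENSDARG00000012076), the entry with the largest ratio of liver over skin, had 987, 1474, 1399, 1204 and 1027 CPM in brain 10, 11, 13, 14 and 15. It had 29139, 30775, 29180, 37531 and 22726 CPM in liver 10, 11, 13, 14 and 15, and 25.7, 7.72, 21.1, 21.3 and 48.9 CPM in skin 5, 6, 7, 13 and 14. In all 3 entries skin 14 was the highest and skin 6 the lowest skin sample, and liver 15 the lowest liver sample. The mean CPM in liver over that in skin was 1045 for the first, 607 for the second and 1197 for the last. On the TMM scale, brain over skin had a log2 fold change of 6.14 ± 0.50, 5.91 ± 0.42 and 4.93 ± 0.38, and liver over skin 10.89 ± 0.60, 10.08 ± 0.50 and 11.06 ± 0.50 (SE).

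In liver over skin the lowest ratios belonged to 2 brain and skin entries. Nofu_gene_3_0000270 (ENSDARG00000037746) had 1148 to 1440 CPM in brain with a median of 1288, 884 to 1562 CPM in liver with a median of 1025, and 3999 to 5035 CPM in skin with a median of 4449. Nofu_gene_3_0019731 (ENSDARG00000004757) had 742 to 1231 CPM in brain with a median of 888, 765 to 1455 CPM in liver with a median of 1055, and 2733 to 4665 CPM in skin with a median of 3153. In both, every skin sample stood above every liver and brain sample in CPM, and brain and liver overlapped. The TMM-scaled log2 fold change of liver over skin was -1.28 ± 0.18 for the first and -0.91 ± 0.23 for the second (SE). That of brain over liver was -1.29 ± 0.18 and -1.68 ± 0.24 (SE), so how brain and liver compare depended on the scale.

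A stretch of the catalogue's own numbering held many of the shared entries. Ordered by the number in their identifier, 17 of the 46 lay between 14917 and 15035, with no gap over 40 numbers between neighbours. This run was noticed after the values were seen. The catalogue lists 104 entries there, 0.568% of its entries, against 37.0% of the shared ones. Of these 17, 6 stood in all 3 top lists and 11 in those of liver and skin alone, and all 17 were best bidirectional hits of their zebrafish gene. Whether the numbering follows position in a genome is not given in the sources used here.

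All 17 entries of the stretch had a higher mean CPM in liver and in skin than in brain. Each stood in both liver's and skin's lists, so similar levels in liver and skin are in part set by the rule. Mean CPM in liver over that in brain ran from 1.94 to 3.59 with a median of 2.39, skin over brain from 2.28 to 3.52 with a median of 2.63, and liver over skin from 0.782 to 1.15 with a median of 0.959. In the 29 other shared entries the median was 1.42 for liver over brain and 1.38 for skin over brain. Together the 17 held 1.41% ± 0.154 of brain counts, 3.50% ± 0.214 of liver counts and 3.73% ± 0.217 of skin counts (SD, n = 5 each). The samples ran from 1.21% to 1.55% in brain, from 3.31% to 3.83% in liver, and from 3.54% to 4.09% in skin, so brain lay below both other tissues, which overlapped. In each of the 17 entries all liver and all skin samples stood above all brain samples. Liver and skin overlapped in 14 of them, and skin lay wholly above liver in 3. Over all entries tested, liver lay wholly above brain in 10.4%, skin wholly above brain in 19.9% and skin wholly above liver in 41.8%. Most of the 17 were chosen through liver and skin alone, so a lower level in brain is in part set by the rule. On the TMM scale, by contrast, 16 of the 17 were called higher in liver than in skin. Of all entries tested, 29.3% were called higher and 33.5% lower in liver there. The choice of the entries used these levels, so nothing is read from these counts. The coefficient of variation (CV, the SD over the mean) had a median over these entries of 13.6% in brain, 9.20% in liver and 8.06% in skin, and over the 29 others of 19.8%, 23.9% and 23.1%.

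Many entries of the stretch outside the 46 were abundant too. Of these 87 entries 59, or 67.8%, reached 100 CPM in some tissue, against 19.5% of all catalogue entries outside the 46. The 59 had a median liver over brain ratio of 2.23, skin over brain of 2.43 and liver over skin of 0.910. Their liver over brain ratio lay between 1.5 and 4 in 54 of 59, and their skin over brain ratio in 53 of 59. Outside the stretch, 8408 and 8418 were the only other shared entries within 40 numbers of each other.

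**Figure D3:**
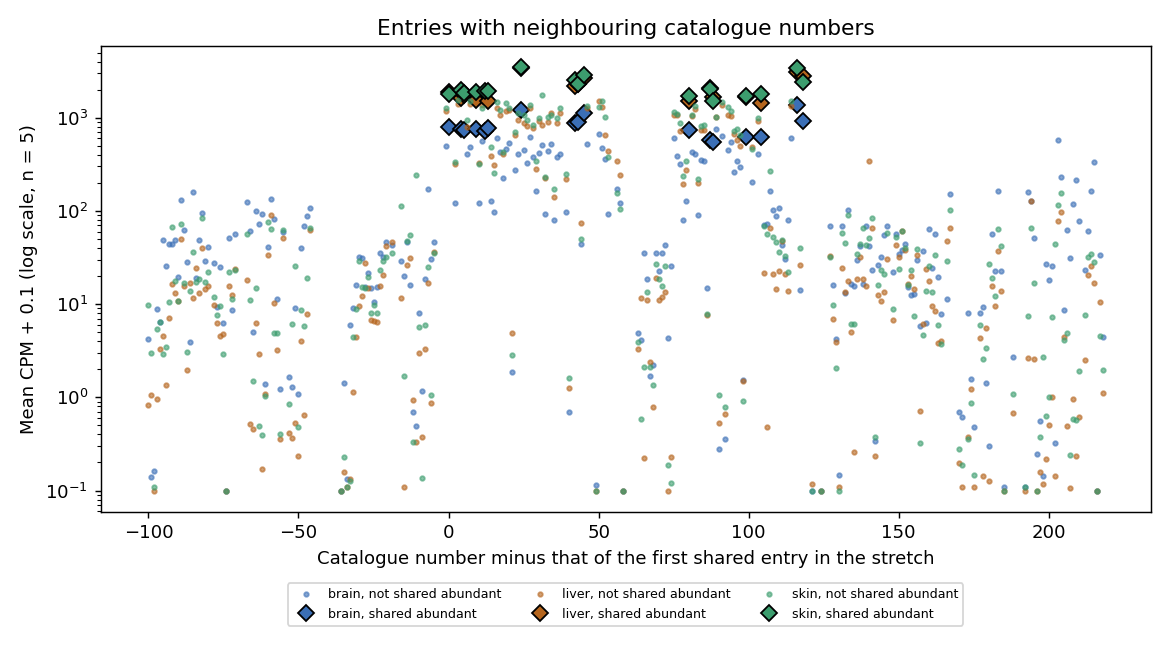
Mean CPM over 5 samples plus 0.1 (log scale) of catalogue entries against their catalogue number, counted from the first shared entry of the stretch, in brain, liver and skin; diamonds mark the 17 shared entries. Liver and skin diamonds lie close together, and the brain diamonds lie below them.

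As a description, the median spread between samples was lower in shared entries than in single-tissue ones for liver and skin. The median CV of the shared entries in a tissue's top list, beside that of the entries in only that list, was 17.3% beside 18.1% in brain, 13.9% beside 26.8% in liver, and 11.1% beside 26.1% in skin. The CV was under 20% in 18 of 30 shared and 39 of 70 single-tissue entries in brain, in 27 of 38 and 19 of 62 in liver, and in 29 of 39 and 19 of 61 in skin. The 17 entries of the stretch had a median CV of 9.20% in liver and 8.06% in skin. The shared entries of the top list outside the stretch had a median of 25.5% in liver (21 entries), near that of the single-tissue entries, and of 14.6% in skin (22 entries). In brain, 6 entries of the stretch had a median of 11.5% and the 24 others 19.5%. Without the entries of high spread described below, the median outside the stretch was 18.1% in liver (16 entries), under that of the single-tissue entries. It was then 14.5% in skin (21 entries) and 14.8% in brain (19 entries).

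**Figure D4:**
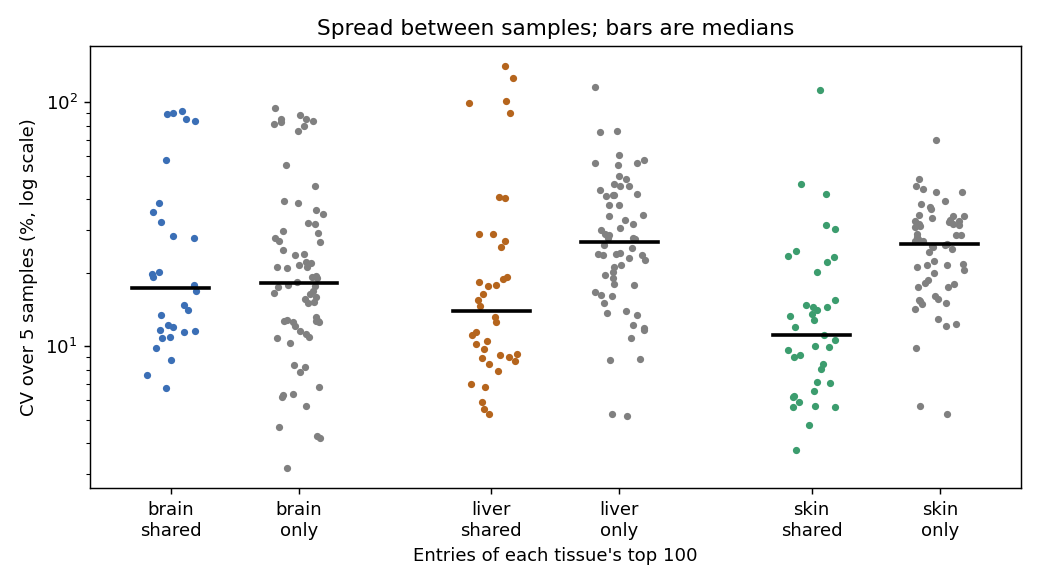
CV over 5 samples (percent, log scale) of the entries of each tissue's top 100, for shared entries (coloured) and for entries in only that top list (grey), with medians as bars. Shared entries have the lower median in liver and skin. A few shared entries stand near or over 100% in brain and liver, and Nofu_gene_3_0016894 stands at 112% in skin. Single-tissue entries of like spread stand in brain and liver too, up to 94.5% in brain and 115% in liver.

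Against this, 5 shared entries varied strongly in every tissue, with a CV over 50% in brain, liver and skin alike, and they were singled out after their values were seen. They are Nofu_gene_3_0002096 (ENSDARG00000069977), Nofu_gene_3_0009908 (ENSDARG00000088839), Nofu_gene_3_0016894 (ENSDARG00000022659), Nofu_gene_3_0017265 (ENSDARG00000076868) and Nofu_gene_3_0020143 (ENSDARG00000033364). Thresholds of 30, 40 or 60% gave the same number of entries. Of the 5, 1 stood in all 3 top lists and 4 in those of brain and liver. High spread within a tissue was not particular to shared entries. In entries of a single list the CV reached 94.5% in brain (Nofu_gene_3_0014052), 115% in liver (Nofu_gene_3_0009596) and 70.0% in skin (Nofu_gene_3_0013971).

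Taken as a sum, they held 0.469%, 1.01%, 2.22%, 0.121% and 2.60% of the counts in brain 10, 11, 13, 14 and 15. They held 0.561%, 1.01%, 3.63%, 0.508% and 0.360% in liver 10, 11, 13, 14 and 15, and 1.63%, 0.262%, 0.386%, 0.599% and 0.315% in skin 5, 6, 7, 13 and 14. Brain 13 and 15, liver 13 and skin 5 were the high samples, and brain 14 the lowest of all; the 3 tissues overlapped. Samples with the same title number were alike in part: number 13 was among the 2 highest of each tissue and number 14 was below each tissue's median, whereas number 15 was highest in brain and lowest in liver. Their mean share was 1.28% ± 1.08 of brain counts, 1.21% ± 1.37 of liver counts and 0.639% ± 0.570 of skin counts (SD, n = 5 each). Without liver 13 the liver mean was 0.611%, and without skin 5 the skin mean was 0.390%. The 41 other shared entries held 5.15% ± 0.590 of brain counts, 14.4% ± 1.91 of liver counts and 8.89% ± 0.490 of skin counts.

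The 5 entries moved together over the libraries. With tissue means removed from log2(CPM + 0.5), Pearson's r over the 15 libraries was 0.927 to 0.990 in the 10 pairs of them. Within brain it was 0.903 to 0.989, within liver 0.899 to 0.997 and within skin 0.932 to 0.993, over 5 libraries each, as a description. The entry 0016894 had 957, 1859, 3096, 230 and 5846 CPM in brain 10, 11, 13, 14 and 15. It had 1220, 1578, 9622, 745 and 568 CPM in liver 10, 11, 13, 14 and 15, and 4786, 625, 743, 1265 and 606 CPM in skin 5, 6, 7, 13 and 14. Of the other shared entries, Nofu_gene_3_0014049 (ENSDARG00000076892) alone followed their mean with r above 0.9, at 0.93, as did 25 of the 3556 entries outside the 46 that reached 100 CPM in some tissue. It ranged more narrowly, between 588 and 2443 CPM in brain, 1372 and 3445 CPM in liver, and 1377 and 2356 CPM in skin.

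**Figure D5:**
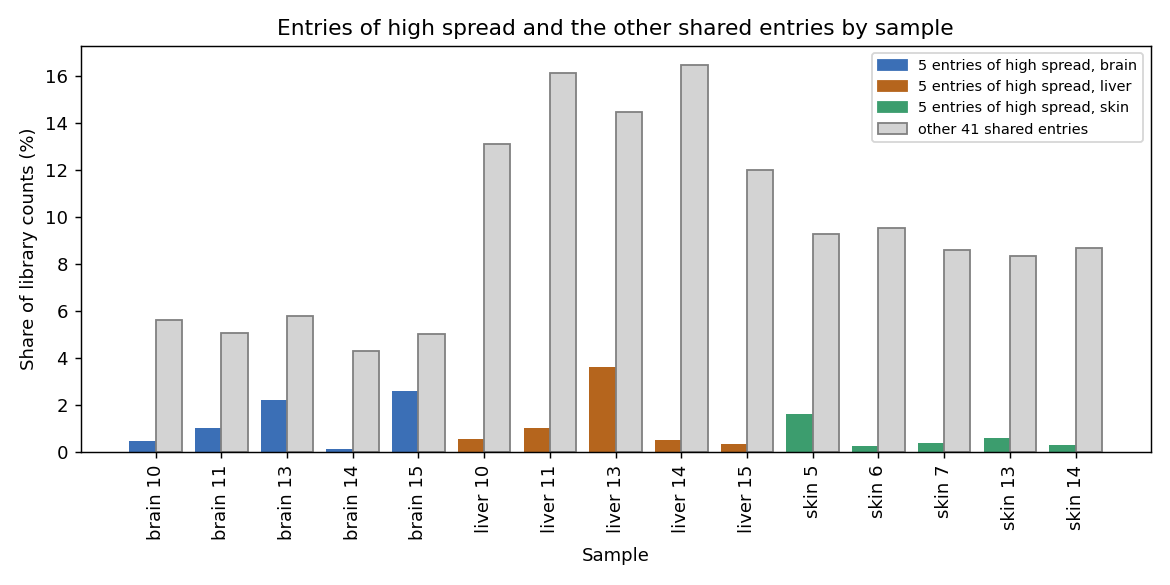
Share of library counts (percent) held by the 5 entries of high spread (coloured bars) and by the 41 other shared entries (grey bars) in each sample. The coloured bars are highest in liver 13 (3.63%), brain 15 (2.60%), brain 13 (2.22%) and skin 5 (1.63%). Relative to their mean, the grey bars vary less within a tissue. In percentage points the grey bars span more than the coloured ones in liver.

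In the second count table, of gene models of the killifish genome, such a group was looked for among shared and abundant models only, and was not found there. None of its 45 models shared by the same rule had a CV over 50% in every tissue. Of its 3357 models at or above 100 CPM in some tissue, 0 followed the mean of the 5 entries with r above 0.9, and the highest r was 0.866. The best r of each of the 5 with any of those models was 0.812 to 0.882. For the 41 other shared entries the best r had a median of 0.963 and was above 0.9 in 34. The best-matching model lay within 2-fold of the entry's level in every tissue for 0 of the 5 and for 30 of the 41. That model was picked by r alone and need not be the same gene. The best of so many models over 15 libraries can reach a high r by chance, and that level was not computed. With these 5 set aside, none of the 46 stood at 2-fold or more above the mean of the other 4 samples of its tissue in brain 13, brain 15, liver 13 or skin 5, although 0014049 was highest in liver 13, skin 5 and brain 15 too. What the 5 entries share beyond these values was not tested.

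Setting the 5 entries aside, few of the other 41 put a library apart. Skin 14 had 3 at 2-fold or more above the mean of the other 4 skin samples, the 3 entries with low skin levels. Skin 7 had 2, the pair with low brain levels, and liver 15 had 1. At or under 0.5 times the mean of the other 4 samples stood 2 entries in brain 14, 2 in skin 6, and 1 each in brain 10, brain 15, liver 15 and skin 5.

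Sequence length, as implied by the ratio of CPM to the deposited RPKM, which divides by length too, had a median of 2000 bases in the 46 entries (343 to 7757), against 2372 in the catalogue. Every implied length lay within 0.01 bases of a whole number. A length of 2000 bases was that of 5 shared entries (10.9%) and of 740 of the catalogue (4.09%), where 19 entries were 1 base shorter and 25 were 1 base longer. What sets this length is not given in the sources used here. Best bidirectional hits made up 38 of the 46, or 82.6%, against 74.1% of the catalogue. The 46 carried 46 different zebrafish identifiers, and 11 of these (23.9%) belonged to other entries too, against 28.1% of the catalogue. For 8 of the 11 the shared entry held over 90% of the identifier's counts in every tissue. The exception under 50% was 0014049, with 85.3% in brain, 94.0% in liver and 34.7% in skin. Reads of near-identical copies may be divided between such entries in a way that the files do not show.

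Length mattered to which entries were shared. By mean RPKM in place of CPM, 59 entries were among the 100 highest of at least 2 tissues, 46 of them in all 3. Of the 46 chosen by CPM, 33 remained, which is 71.7% of them and 55.9% of the list by RPKM. The 13 lost had a median length of 3663 bases, and the 26 that joined had 580 bases. In the genome table, the same rule on CPM gave 45 models, of which 25 stood in all 3 top lists, 3 in brain and liver, 8 in brain and skin, and 9 in liver and skin. These models held 5.83% ± 0.623 of brain counts, 17.7% ± 2.07 of liver counts and 11.5% ± 0.776 of skin counts (SD, n = 5 each).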

How the data were processed

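Total RNA of 5 brain, 5 liver and 5 skin samples was made into Illumina TruSeq libraries, per the labels' protocols. Tools listed in the submitters' processing notes are featureCounts 1.4.3-p1, TopHat2 2.0.6, Bowtie and CASAVA 1.8.2, without their roles. Build, annotation and strandedness: not given in the sources used here. The authors deposited raw counts per catalogue entry and per genome model, treated as such because they are whole numbers with different totals. The authors also deposited RPKM values and another kind of value, a flag for best bidirectional hits, per the file headers; 60 columns of samples outside the 15 were not used. Libraries held 17653543 to 30801799 catalogue counts, and the lowest count of a shared entry in a library was 103. Nothing in the labels ties samples to fish, so p-values measure the spread between these samples.

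CPM, shares and means were computed with Python 3.11.15 and pandas 2.3.3. Differences were fitted with edgeR 4.0.16 in R 4.3.3, with TMM, filterByExpr (count minimum of 10), 1 fit over 15 samples and Benjamini-Hochberg adjustment at 0.05; the script was tested on simulated data. The SE is the absolute log2 fold change over the square root of F. Alternatives were RLE or no scaling, no filter, DESeq2 1.42.0, limma 3.58.1 on log2(RPKM + 0.1), a replicate block, other list sizes and omitted samples.

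The shared entries and lists were chosen with earlier results of these data known. The gene lists and markers were to be found by symbol; 0 catalogue, 0 zebrafish and 0 genome identifiers matched the 38438 genes of RefSeq assembly NfurGRZ-RIMD1, so none was used. By the rule for that case at most 2 higher and 2 lower entries per comparison are given by identifier; as it sets no ranking, the largest ratios of mean CPM were taken, after values were seen.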

Additional observations from a re-analysis of the deposited data

Results flagged for a closer look

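In 48 groups of 5 samples examined, 9 samples stood far from the other 4 (gap over range above Dixon's 0.71). Chance alone flags about 1 in 20 groups of samples, but the groups here include entries singled out for their high spread after the values were seen, so the count is not set against chance. Of the summed 5 entries of high spread, liver 13 held 3.63% and skin 5 held 1.63% of the counts. Among single entries, liver 13 stood apart with 6697 CPM in Nofu_gene_3_0009908, 9622 CPM in Nofu_gene_3_0016894 and 9485 CPM in Nofu_gene_3_0020143. Skin 5 stood apart with 4786 CPM in Nofu_gene_3_0016894 and 3552 CPM in Nofu_gene_3_0020143. These 7 values are of entries that were chosen for their spread and move together. Liver 15 had 1469 CPM in Nofu_gene_3_0003649, with the next liver sample at 685 CPM, and skin 6 had 4665 CPM in Nofu_gene_3_0019731, with the next skin sample at 3287 CPM.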

How the results depend on the processing

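With the 50 highest entries per tissue 15 were shared, and with the 200 highest 112. They held 2.47% and 11.2% of counts in brain, 10.2% and 22.3% in liver, and 3.71% and 16.6% in skin. As a share of summed RPKM, the 46 held 10.2% in brain and 12.9% in skin. In liver that share lay within 1 SD of the share of counts, which was 15.7% ± 2.48 (SD). Without TMM, 14 of the 46 passed in liver over skin. The number shared was 43 by medians, 46 by TMM-scaled levels, 59 by RPKM, 45 in the genome table and 44 without skin 7 and liver 14. Leaving out 1 sample gave 45 to 47, and 38 of the 46 were kept whichever sample was left out; without liver 13, 3 of the 5 entries of high spread were lost. Those ranges were 5.87% to 6.95% for the share in brain, 15.1% to 16.5% in liver and 9.25% to 9.67% in skin. Entries of the 46 that passed ran from 38 to 42 in brain over liver, 37 to 39 in brain over skin and 26 to 37 in liver over skin. All entries that passed ran from 11883 to 12727, 11214 to 12363 and 9957 to 10707 in the same comparisons. The share of the 5 entries of high spread, an alternative chosen after seeing the data, ran from 0.955% to 1.57% in brain, 0.611% to 1.43% in liver and 0.390% to 0.733% in skin. Title numbers did not pair the samples by the criterion of every r over 0.1: same-number r was 0.083 to 0.169 between brain and liver (over 0.1 in 3 of 5), 0.040 and 0.276 between brain and skin, and 0.113 and 0.044 between liver and skin. As a hint from the data, 4 of 5 numbers matched best with themselves between brain and liver. Number 13 did not (0.083, against 0.171 with another number), nor did it in brain and skin, nor number 14 in liver and skin. Over the 46 alone the numbers 13 and 14 had r of 0.64 to 0.88 in all tissue pairs. Between brain and liver it was 0.42 for number 10, 0.22 for number 11 and -0.55 for number 15. The 46 include the 5 entries of high spread, which move together. With the number as a replicate block, 40, 36 and 21 of the 46 and 12184, 9508 and 7990 of all entries passed in brain over liver, brain over skin and liver over skin. Skin 5, 6 and 7 share their number with no brain or liver sample. With the block, both comparisons with skin therefore rest on skin 13 and 14 alone among the skin samples. RLE scaling, no filter and DESeq2 moved no count of calls by over 1.5 times in total. Limma on RPKM, which has no TMM scaling, moved the directions: in liver over skin 7 of the 46 were higher and 13 lower in liver. Of all entries it called 11898 higher and 2089 lower in brain over liver, 9243 and 3688 in brain over skin, and 1869 and 9390 in liver over skin.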
